A study of Mus musculus with 9 samples.

Results

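The cytosolic ribosomal protein genes encode the proteins that, with ribosomal RNA, build the large and small subunits of the ribosome. They were picked out of the deposited tables by symbol: Rpl or Rps followed by a digit and then only lower-case letters or digits, together with Rplp0, Rplp1, Rplp2 and Rpsa, leaving out the Rps6k kinases, Rps19bp1 and hyphenated names. Of 90 such symbols, 87 had at least 1 FPKM (fragments scaled to transcript length and to the total mapped) in at least 3 of 9 libraries, among 11337 genes that passed this filter. The 87 comprise 45 proteins of the large subunit, 31 of the small subunit and 11 extra copies or paralogs, such as Rpl3l, Rpl22l1, Rps27l and Rps27rt. The other 3 symbols, Rpl10l, Rpl39l and Rps4l, had 0 libraries at or above 1 FPKM, with maxima of 0.105, 0.363 and 0.317 FPKM. Rpl13 is not analysed here.

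Transcripts were measured by RNA sequencing in HL-1, a mouse line derived from atrial cardiomyocytes that divides without limit and is kept in Claycomb medium. The cells received 5 µM ivermectin, 10 µM importazole or vehicle (0.1% DMSO) for 24 h, with 3 libraries per group. Ivermectin, an antiparasitic drug, is used in the laboratory to inhibit the importin α/β receptor pair, and importazole inhibits importin-β, the receptor that carries many cargoes into the nucleus. The doses differ. The labels name DMSO for the vehicle group alone and do not say that libraries came from separate cultures, so p-values measure only the spread between these libraries, which may be technical.

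Ribosomal proteins are made in the cytoplasm, are carried by import receptors into the nucleus and nucleolus, and are assembled there on ribosomal RNA before the subunits are exported. In mammals their transcripts begin with a terminal oligopyrimidine (TOP) tract, a run of C and U at the very 5′ end through which mTORC1 signalling controls their translation. Ribosomal protein transcripts are among the most abundant mRNAs of growing cells, and in many conditions their levels move as a group.

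Most of these genes held a run of pyrimidines near the annotated start. RefSeq windows around an annotated start (build GRCm38.p6) were available for 63 of the 87 genes. The stretches below are read 5′ to 3′ in the direction of transcription, with the longest unbroken run of C and T between 50 bases before and 50 bases after the annotated start in capitals, and are shown because these genes carry the values described later. 
Rps24, chr14:24490710-24490727, plus strand: gagcggTCCTCTTTTCCT
Rpl37a, chr1:72711277-72711300, plus strand: attgcgTCCCTTCCTCTTCggact
Rps10, chr17:27635230-27635253, minus strand: cgcacgCCCCTTCCTTTCCagcct
Rps15a, chr7:118116146-118116169, minus strand: cggcccaCTCTCTTTCTgccatct
Rpl39, chrX:37085173-37085191, minus strand: cccggCCTTTCTCTTCTCC
Rps6, chr4:86857352-86857375, minus strand: agtcgggCCTCTTTTTCgtgacgc
Rpl11, chr4:136053361-136053384, minus strand: gaagTCTCCCTCTCTCTTCCTgtt
Rplp2, chr7:141447639-141447662, plus strand: gtcagcgTCTTCCTTTCgccgccg
Counted from 1 at the annotated start, with negative positions before it, the runs begin at -15 for Rps15a, -5 for Rplp2, -3 for Rps10, -1 for Rps6, 14 for Rpl11, 24 for Rpl37a, 37 for Rpl39 and 39 for Rps24. Those far from the annotated start are not shown to be the tract at the end of the transcript. The runs of Rps24 and Rpl39 reach the end of the window and may continue past it. A run of at least 8 pyrimidines was found in 49 of the 63 windows (77.8%), against 30.9% of the windows of 8395 tested genes. The median longest run was 10 bases, against 6 for all tested genes. The longest run of Rplp0 within its window was 7 bases. On either strand of the 300-base window, CCGGAAG, the core bound by ETS factors, was found in 38.1% of the 63 windows and 19.9% of all windows, and CACGTG, the E-box bound by Myc and its partners, in 7.94% and 10.8%. The reverse complement of CCGGAAG starts with pyrimidines, so some of its matches can overlap the runs. These matches describe letters in a window around an annotated start, which can lie away from the start used in these cells.

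Ribosomal protein transcripts were among the most abundant in HL-1 cells. The median level over the 9 libraries of the 76 genes without extra copies was 526.6 FPKM, with 127 FPKM as the lowest, against a median of 10.3 FPKM for all tested genes. A mean of at least 100 FPKM was reached by 79 of the 87 genes and by 596 of the 11337 genes tested. At 1000 FPKM or more were 12 of the 87, out of 34 genes in all. The highest means were those of Rplp0 at 2007 FPKM, Rps25 at 1813 FPKM, Rpl32 at 1729 FPKM and Rps18 at 1497 FPKM. The lowest were those of Rpl3l, Rps12l2, Rpl22l1 and Rpl7l1, at 3.54, 6.44, 13.2 and 27.4 FPKM, all copies or paralogs. The lowest value of any of the 87 genes in any library was 2.66 FPKM, so none passed the filter through 1 group alone. FPKM is scaled by transcript length, but the annotation used is not given and reads can be shared between near-identical copies. These levels can thus be compared between genes only approximately.

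The libraries did not stand alike. Reads could not be counted back from the deposited FPKM, so depth is unknown, and summed FPKM was 365259 to 416748 per library. The symbol Yam1 took 5.86% to 10.4% of summed FPKM in 7 libraries and was listed at 0 in ivermectin library 3 and vehicle library 2. All 10 HL-1 cardiomyocyte markers were detected, with summed levels of 6606 to 7080 FPKM with ivermectin, 7079 to 7639 FPKM with importazole and 7544 to 8582 FPKM with vehicle. Of the 10, 3 fell with ivermectin, and 2 fell and 1 rose with importazole. Among all 11337 genes, 2.52% fell with ivermectin, and 0.565% fell and 1.69% rose with importazole. Of 6 fibroblast markers 2 passed the filter, Ddr2 and Col1a1, and the summed level of the 6 was 36.8 to 38.9 FPKM with ivermectin, 34.4 to 36.9 FPKM with importazole and 23.6 to 26.8 FPKM with vehicle, nearly all of it from Ddr2. Ddr2 rose with both compounds, while Col1a1, Col1a2, Col3a1, Pdgfra and Dcn averaged below 1 FPKM in each group. Smooth muscle markers, of which 3 of 4 passed the filter, summed to 1158 to 1279 FPKM with ivermectin, 1173 to 1285 FPKM with importazole and 1347 to 1404 FPKM with vehicle, so that both compound groups lay below vehicle, although 0 of the 3 passed the test. Endothelial markers, of which 2 of 5 passed the filter, summed to 8.97 to 9.93 FPKM with ivermectin, 9.79 to 11.45 FPKM with importazole and 10.29 to 11.22 FPKM with vehicle, and the ivermectin and vehicle ranges did not overlap. Immune markers, of which 1 of 5 passed the filter, summed to at most 3.10 FPKM in any library. Cdh5, Ptprc and Myh11 averaged at most 0.0298, 0.0959 and 0.101 FPKM in any group. The part of these markers in the results below was not tested.

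Ribosomal protein transcripts made up a large part of the measured mRNA pool. They accounted for 11.7%, 11.9% and 14.4% of summed FPKM in the ivermectin libraries, 12.3%, 12.3% and 12.6% in the importazole libraries and 11.3%, 11.8% and 10.6% in the vehicle libraries. Importazole libraries lay above the vehicle libraries, and the ivermectin libraries overlapped them. With Yam1 left out of the total, the shares were 13.1%, 13.0% and 14.4% with ivermectin, 13.2%, 13.1% and 13.5% with importazole and 12.1%, 11.8% and 11.8% with vehicle. On that scale both compound groups lay above the vehicle libraries, with means of 13.5% ± 0.748, 13.3% ± 0.223 and 11.9% ± 0.182 for ivermectin, importazole and vehicle (SD, n = 3 each). A larger share per library cannot be told apart from less of other RNA, and in bulk RNA fewer cells of a type cannot be told apart from less RNA per cell. Ivermectin library 3 held the highest value of 54 of the 87 genes, and vehicle libraries 3 and 2 held the lowest value of 49 and 28.

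**Figure D1:**
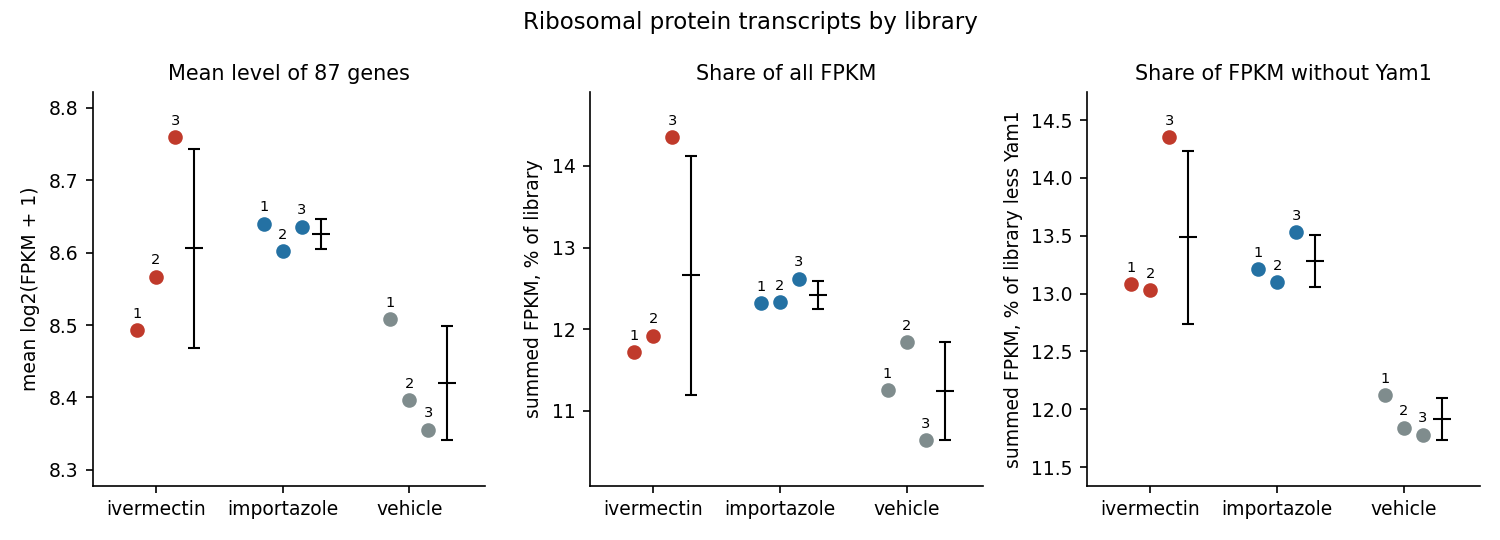
Each point is a library, numbered by replicate, and bars give the mean ± SD of 3 libraries. The left panel plots the mean log2(FPKM + 1) of the 87 genes, the middle panel their summed FPKM as a percentage of all FPKM, and the right panel the same percentage with Yam1 left out of the total. Ivermectin library 3 is highest in all 3 panels, and in the right panel the lowest compound library is at 13.0% and the highest vehicle library at 12.1%.

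The balance between subunits did not move with treatment beyond the spread of libraries. The mean log2(FPKM + 1) of the small-subunit genes exceeded that of the large-subunit genes by 0.35 ± 0.016 in ivermectin libraries, 0.33 ± 0.023 in importazole libraries and 0.33 ± 0.028 in vehicle libraries (SD, n = 3 each). These ranges overlapped, from 0.33 to 0.36, from 0.31 to 0.35 and from 0.30 to 0.35 in the same order. 

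The first comparison asked how ribosomal protein transcripts of ivermectin-treated cells stood against vehicle. Their levels were slightly higher across the family, with a median log2 change of 0.19, or 1.14-fold, against 0.014 for all 11337 genes. The log2 change was above 0 for 85 of the 87 genes, as it was for 53.3% of all genes, and the middle part of the family, from the lower to the upper quartile, lay between 0.13 and 0.25. The median standard error of a gene's log2 change was 0.089. Genes of the large and small subunit had like medians, 0.19 and 0.19, with changes from -0.01 to 0.40 among the 45 and from 0.01 to 0.41 among the 31. At a Benjamini-Hochberg adjusted p under 0.05 in limma's test over all 11337 genes, 1 of the 87 was called higher, against a background of 1.79% of all genes, and 0 were called lower, against 2.52%. At an unadjusted p under 0.05, 40 of the 87 were higher, against 10.5% of all genes, and 0 were lower, against 10.3%. These 40 were 22 of the 45 large-subunit genes, 17 of the 31 small-subunit genes and 1 of the 11 extra copies. The 3 ivermectin libraries all lay above the 3 vehicle libraries for 31 of the 87 genes, against 12.4% of all genes, and all below for 0, against 12.2%. The 87 genes share libraries, so these counts are not of independent observations. As a mean log2(FPKM + 1) of the 87, ivermectin library 1 (8.49) lay below vehicle library 1 (8.51), so the groups overlapped.

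The size of these ivermectin values depended on ivermectin library 3. Without ivermectin library 3 the log2 change was lower for 74 of the 87 genes, and for 54 of the 85 above 0 it fell by over 1.5 times or to below 0. The median without that library was 0.114, and it was 0.0996 with vehicle library 2 left out as well, so without both libraries at 0 for Yam1. With FPKM rescaled after leaving Yam1 out, which keeps all 9 libraries, the median was 0.174, 7 of the 87 genes were called higher (among them Rpl12, Rpl3, Rpl4, Rps15a, Rps20 and Rps24), against 2.11% of all genes, and 46 of 87 did not overlap with vehicle, against 11.9%. The number of the 87 called higher was 0 when ivermectin library 2 or 3, vehicle library 2 or 3, or any 1 of the importazole libraries was left out. It was 2 without ivermectin library 1 (Rpl12 and Rps20) and 1 without vehicle library 1 (Rps12l2), and 0.847% to 1.46% of all genes were called higher in these fits with a library left out.

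**Figure D2:**
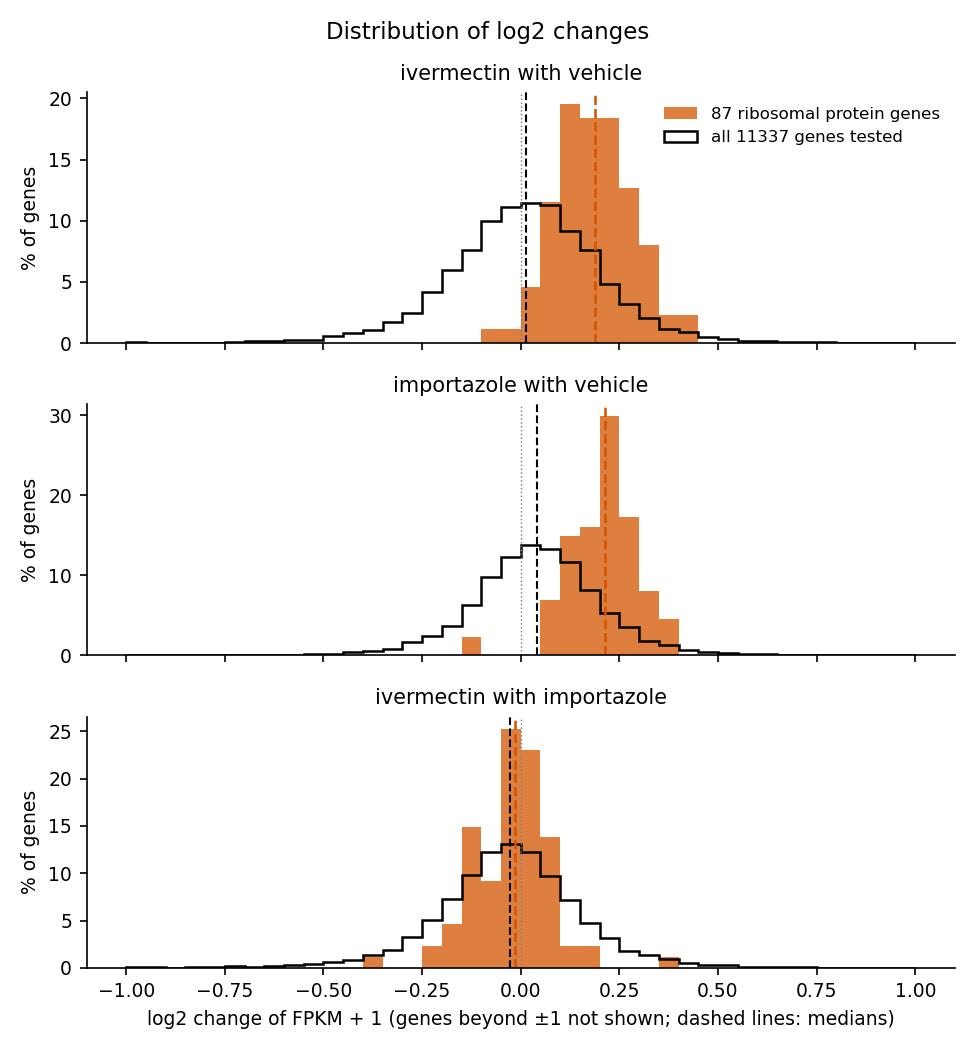
Histograms of the log2 change of FPKM + 1 for the 87 ribosomal protein genes (filled) and for all 11337 genes tested (outline), as a percentage of each set, in the 3 comparisons; dashed lines are medians. The filled bars sit mostly right of 0 with ivermectin (median 0.19) and importazole (median 0.21) against vehicle and around 0 in the direct comparison (median -0.015).

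Rps24, a small-subunit protein needed in human cells for the maturation of 18S ribosomal RNA, was the gene called. It lies on the plus strand at chr14:24487125-24496959 (GRCm38, GENCODE M21). Its level was 675, 689 and 809.6 FPKM in the ivermectin libraries and 614, 554.0 and 589 FPKM in the vehicle libraries, with importazole at 673, 679 and 701 FPKM. Every ivermectin library was above every vehicle library, with library 3 the highest. The log2 change was 0.30 ± 0.075 (SE) with an adjusted p of 0.0489 in limma's test. It did not pass when any single library was left out, and its adjusted p ran from 0.0127 to 0.206 over 21 settings.

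The largest ivermectin differences among the 87 were those of Rps15a, Rpl39, Rpl12 and Rpl22l1. Rps15a, a small-subunit protein, had 639, 628.5 and 875 FPKM with ivermectin and 589, 500.5 and 508.0 FPKM with vehicle, a log2 change of 0.41 ± 0.12 (SE, limma adjusted p 0.0954). Rpl39, which lines the exit tunnel of the large subunit, had 116, 131 and 195 FPKM with ivermectin and 114, 111 and 101 FPKM with vehicle. Rpl12, at the base of the ribosomal stalk, had 365, 410.2 and 546 FPKM with ivermectin and 346.0, 327 and 325 FPKM with vehicle. In all 3 genes the groups did not overlap, and in all 3 ivermectin library 3 was far above libraries 1 and 2. Without it the log2 changes of Rps15a, Rpl39 and Rpl12 were 0.26, 0.18 and 0.22. Exons of Rpl12 overlap those of Lrsam1 on the opposite strand, which averaged 4.64 FPKM, and the use of strand is not given. At the other end, Rpl28 had 558, 621.0 and 517.0 FPKM with ivermectin and 606, 576 and 527.0 FPKM with vehicle, and Rpl29 had 300.2, 324 and 303 FPKM with ivermectin and 329.8, 310.4 and 278 FPKM with vehicle, so that both overlapped. Exons of Rpl28, a large-subunit protein, overlap Ube2s on the opposite strand, which averaged 115 FPKM.

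**Figure D3:**
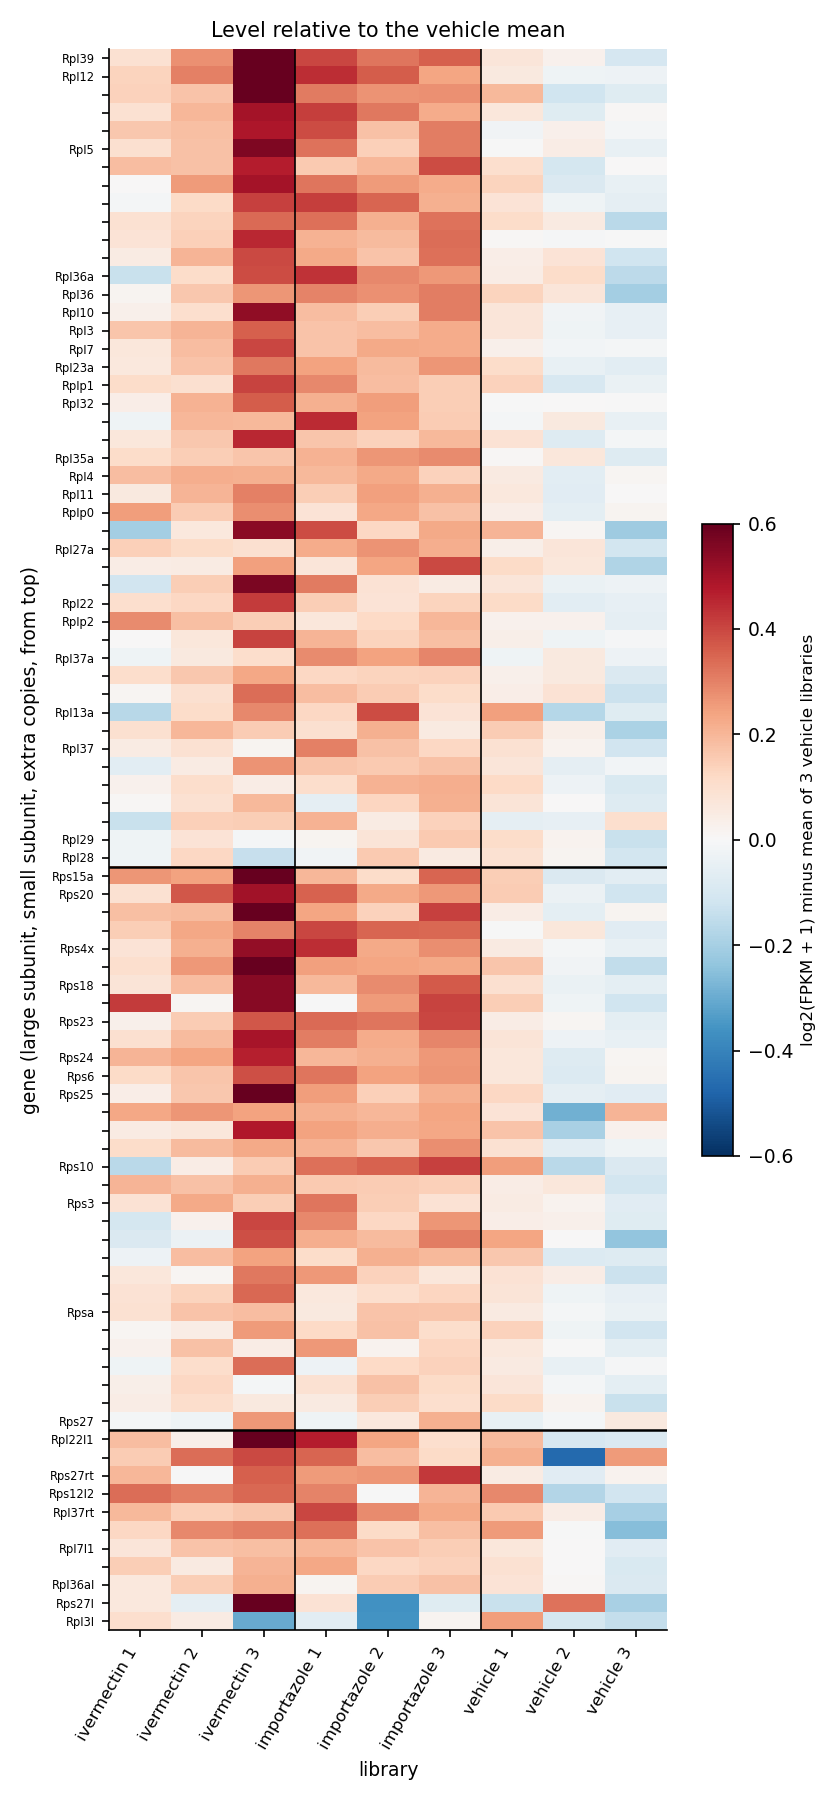
Each row is a ribosomal protein gene (only some are labelled), grouped from the top into large subunit, small subunit and extra copies, and each column a library; colour is log2(FPKM + 1) minus the mean of the 3 vehicle libraries, and the strongest colours stand for values at or beyond the ends of the scale. Ivermectin library 3 is the darkest column, highest for 54 of the 87 genes, and 81, 84 and 86 of the 87 genes are above their vehicle mean in the importazole columns.

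With importazole the family was also slightly above vehicle, and more evenly over libraries. The median log2 change was 0.21, or 1.16-fold, against 0.041 for all genes, with quartiles of 0.15 and 0.27. It was above 0 for 85 of the 87 genes, against 61.4% of all genes, and for 76 of the 76 genes without extra copies. In limma's test 2 of the 87 were called higher, among them Rpl37a, against a background of 1.69%, and 0 were called lower, against 0.565%. At an unadjusted p under 0.05, 48 of the 87 were higher, against 11.3% of all genes, and 0 were lower, against 4.48%. By class, 30 of the 45 large-subunit genes, 14 of the 31 small-subunit genes and 4 of the 11 extra copies had such an unadjusted p, at medians of 0.21, 0.22 and 0.17, and the difference between classes was not tested. All 3 importazole libraries lay above all 3 vehicle libraries for 57 of the 87, against 16.5% of all genes, and below for 0, against 7.07%. The mean log2(FPKM + 1) of the 87 exceeded the vehicle mean by 0.22, 0.18 and 0.22 in importazole libraries 1, 2 and 3, with the ivermectin libraries at 0.073, 0.15 and 0.34 and the vehicle libraries at 0.088, -0.024 and -0.065. Both comparisons with vehicle use the same 3 vehicle libraries.

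The number of genes called with importazole depended on which libraries entered the fit. It was 14 of 87 (16.1%) without ivermectin library 3, which takes no part in the difference itself, against 2.18% of all genes in that fit. It was 1 without importazole library 2 or 3, ivermectin library 2 or vehicle library 2, and 0 without importazole library 1 or vehicle library 3, while 0.926% to 1.33% of all genes were called in those fits. Rescaled without Yam1, the median was 0.169, 2 genes were called, among them Rps23, against 1.43% of all genes, and 56 of 87 did not overlap, against 11.7%.

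Rpl37a, a zinc-binding protein of the large subunit, was called with importazole. It lies on the plus strand at chr1:72711290-72713813 in the same annotation. Its level was 459, 446 and 462 FPKM with importazole, 371, 392.5 and 405 FPKM with ivermectin and 370.1, 392.5 and 369 FPKM with vehicle. Importazole libraries stood above the other 6, which overlapped each other. The log2 change with importazole was 0.27 ± 0.057 (SE, limma adjusted p 0.0338), and with ivermectin 0.05 ± 0.057 (adjusted p 0.687, limma). The call was made in 8 of 21 settings and in 2 of 9 with a library left out (without ivermectin library 1 or 3), with adjusted p from 0.0178 to 0.129, and was not made after rescaling without Yam1.

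Rps23, a protein of the decoding centre, and Rps10 had large importazole differences that did not pass the test. Rps23 had 226, 223.0 and 236 FPKM with importazole, 182, 198 and 231 FPKM with ivermectin and 184, 180.0 and 171 FPKM with vehicle, a log2 change with importazole of 0.35 ± 0.081 (SE, limma adjusted p 0.0521). The importazole and vehicle libraries did not overlap. Rps23 passed in many other settings, among them a filter at 5 FPKM (limma adjusted p 0.0387) and fits to 6 libraries (0.0118), but not with no filter. It also passed with quantile normalization (limma adjusted p 0.0212), median-of-ratios scaling (0.0371), rescaling without Yam1 (0.0207) and length and GC trends removed (0.0193). In fits with a single library left out, Rps23 passed only without ivermectin library 1 or 3. With a library left out, the importazole change of Rps10 ran from 0.28 to 0.49. Rps10 passed in those fits only without vehicle library 1 (limma adjusted p 0.0272). Pseudogene symbols of Rps23 had a summed level of 92.7% of the gene's own, so reads of the gene and its copies may have been divided in ways that are not given. The smallest importazole change outside the copies was that of Rpl28, at 0.06, and its libraries overlapped with vehicle.

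**Figure D4:**
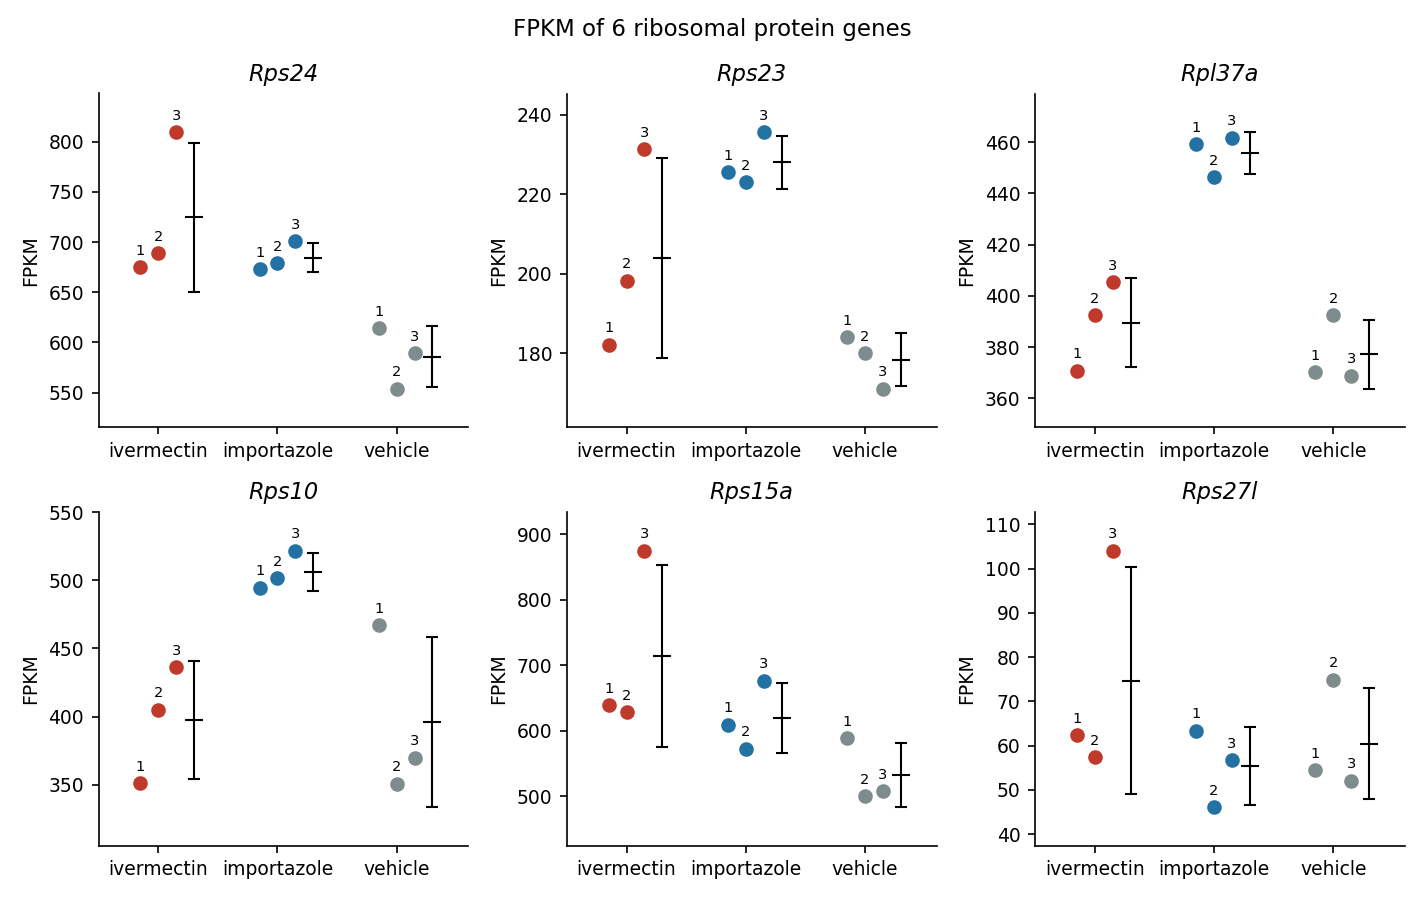
FPKM of 6 ribosomal protein genes in each library, numbered by replicate, with bars for the mean ± SD of 3 libraries; the vertical axes do not start at 0. Rps24 lies above vehicle with both compounds, the importazole libraries of Rps23 lie above its vehicle libraries, Rpl37a and Rps10 are highest in the importazole libraries, and Rps15a and Rps27l are highest in ivermectin library 3.

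The direct comparison of ivermectin with importazole, at these doses, found little difference in the family. The median log2 change was -0.015, against -0.026 for all genes, with quartiles of -0.079 and 0.038. In limma's test 0 of the 87 were called higher, against a background of 0.714%, and 0 lower, against 2.71%. At an unadjusted p under 0.05, 0 were higher, against 6.13% of all genes, and 3 were lower, against 12.8%. The smallest adjusted p was 0.0573 for Rpl37a, with a log2 change of -0.23 ± 0.057 (SE, limma). Ivermectin libraries lay wholly above importazole libraries for 2 genes, among them Rps12l2, against 8.04% of all genes. They lay wholly below for 8, against 16.1%, among them Rpl27a, Rpl35a, Rpl36, Rpl37, Rpl37a, Rpl37rt and Rps10. The median moved to -0.103 without ivermectin library 3 and to 0.0446 without ivermectin library 1, and it was 0.016 after rescaling without Yam1.

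Rps10, which sits near the mRNA entry of the small subunit and is ubiquitinated in human cells when ribosomes collide, was called between the compounds relative to the rest of the family, but not on the scale of all genes. It lies on the minus strand at chr17:27630418-27636669. It had 351, 405 and 436 FPKM with ivermectin, 494.5, 501.5 and 522 FPKM with importazole and 467, 351 and 369.9 FPKM with vehicle. Importazole libraries were above all others, and the ivermectin and vehicle libraries overlapped, with vehicle library 1 apart from the other vehicle libraries. On the scale of all genes the log2 change of ivermectin with importazole was -0.35 ± 0.11 (SE, limma adjusted p 0.109). After the mean of the 87 genes was subtracted in each library, it was -0.33 with an adjusted p of 0.0306 in limma's test, and Rps10 was the 1 gene of the 87 called in that comparison (1.15%), a smaller share than the 2.37% of all genes. The subtraction centres the 87 genes on 0 and moves every other gene by the family's difference, so nothing is read from the 0 of 87 called for ivermectin with vehicle, against 17.4% of all genes, or the 0 called for importazole with vehicle, against 7.32%. The Rps10 call was made in 14 of 20 settings. It was lost without ivermectin library 1 or 3, vehicle library 3, or any 1 of the importazole libraries, with adjusted p up to 0.111. Pseudogene symbols of Rps10 summed to 46.3% of the gene's own level.

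The proteins of the stalk, through which elongation factors reach the ribosome, showed the common pattern. Rplp0, the scaffold of the stalk, had 2179, 2030.1 and 2216.0 FPKM with ivermectin, 1934, 2147 and 2068.0 FPKM with importazole and 1881, 1755.5 and 1851 FPKM with vehicle. Rplp1 had 1197, 1184 and 1467.5 FPKM with ivermectin, 1352, 1259 and 1226 FPKM with importazole and 1219, 1037 and 1077 FPKM with vehicle. Rplp2 had 1411.5, 1310.3 and 1281 FPKM with ivermectin, 1214.0, 1259.6 and 1329.8 FPKM with importazole and 1181, 1179.9 and 1115 FPKM with vehicle. Rplp0 and Rplp2 did not overlap with vehicle in either compound, and for Rplp1 the vehicle range overlapped the ivermectin libraries but not the importazole libraries. Their log2 changes were 0.23, 0.20 and 0.20 with ivermectin and 0.16, 0.21 and 0.13 with importazole, with limma adjusted p of 0.07204, 0.241 and 0.0973 and of 0.236, 0.313 and 0.337.

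Rpl5 and Rpl11 form a particle with 5S ribosomal RNA and, when free of ribosomes, bind Mdm2 and stabilise p53. Rpl5 had 213, 225 and 294.5 FPKM with ivermectin, 249.9, 220.0 and 247 FPKM with importazole and 199, 205 and 193 FPKM with vehicle. Neither compound group overlapped with vehicle, and the log2 changes were 0.28 (limma adjusted p 0.176) and 0.26 (0.276). Without ivermectin library 3 the ivermectin change of Rpl5 was 0.14. Rpl11 had 761, 843 and 902.5 FPKM with ivermectin, 811.0, 869 and 847.5 FPKM with importazole and 765.5, 698.5 and 732 FPKM with vehicle. Ivermectin library 1 lay within the vehicle range of Rpl11, and the importazole libraries did not. Exons of Rpl5 overlap Fam69a on the opposite strand, at a far lower 5.12 FPKM.

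Rps6, the substrate of the S6 kinases, had 343, 355 and 413 FPKM with ivermectin, 395, 374 and 379.7 FPKM with importazole and 331, 298.5 and 320.1 FPKM with vehicle. Rpsa, also known as the laminin receptor, had 619, 653 and 660.0 FPKM with ivermectin, 604, 654 and 652 FPKM with importazole and 601, 576 and 564 FPKM with vehicle. Rpl3, which reaches towards the peptidyl transferase centre, had 450.3, 462 and 514 FPKM with ivermectin, 453, 456 and 468.0 FPKM with importazole and 422.5, 394 and 388 FPKM with vehicle. All 3 genes were above vehicle in each compound library, and none passed the test, with limma adjusted p of 0.129, 0.178 and 0.0637 with ivermectin and 0.0996, 0.303 and 0.169 with importazole.

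Other proteins of the core followed with smaller or more variable differences. Rps3, at the mRNA entry, had log2 changes of 0.15 with ivermectin and 0.18 with importazole, and its libraries did not overlap with vehicle in either. Rps4x, encoded on the X chromosome, had 0.27 and 0.31, likewise without overlap. Rpl10, which joins the large subunit late in yeast, had 0.22 and 0.21, and Rpl23a, at the mouth of the exit tunnel, had 0.18 and 0.23; for both, the ivermectin libraries overlapped the vehicle range and the importazole libraries did not. Rpl13a had 0.08 and 0.20, and both compound groups overlapped vehicle. None of these 5 genes passed limma's test in either comparison, and without ivermectin library 3 the ivermectin changes of Rpl10, Rps4x and Rpl23a were 0.066, 0.15 and 0.12.

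The most abundant members showed the same picture. Rps25 had 1658.0, 1799 and 2464.0 FPKM with ivermectin, 1913, 1779.6 and 1865 FPKM with importazole and 1755, 1551 and 1534 FPKM with vehicle. Rpl32 had 1614, 1812.5 and 2016 FPKM with ivermectin, 1816.5, 1866 and 1736 FPKM with importazole and 1566.0, 1569.7 and 1567 FPKM with vehicle. Rps18 had 1381, 1485 and 1909.5 FPKM with ivermectin, 1497, 1591 and 1687 FPKM with importazole and 1397, 1272 and 1255.5 FPKM with vehicle. The vehicle libraries of Rpl32 were nearly equal and lay below all 6 compound libraries, while for Rps25 and Rps18 the vehicle libraries overlapped with ivermectin and not with importazole. Exons of all 3 overlap genes on the opposite strand, among them Trappc4 at 103 FPKM for Rps25.

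Most paralogs were far less abundant than the genes they resemble. Rpl3l, the counterpart of Rpl3 in mouse heart and skeletal muscle, had 4.04, 3.86 and 2.81 FPKM with ivermectin, 3.503, 2.66 and 3.76 FPKM with importazole and 4.59, 3.37 and 3.26 FPKM with vehicle, against means of 475 ± 33.98, 459 ± 8.06 and 402 ± 18.4 FPKM for Rpl3 with ivermectin, importazole and vehicle (SD, n = 3 each). Its log2 changes were -0.05 and -0.13, and the groups overlapped. Rpl22l1 had 12.6, 11.2 and 21.4 FPKM with ivermectin, 15.5, 13.1 and 11.8 FPKM with importazole and 12.6, 10.1 and 10.2 FPKM with vehicle, and its log2 change with ivermectin was 0.38 (limma adjusted p 0.308), or 0.11 without ivermectin library 3. Its partner Rpl22 averaged 633 ± 80.3 FPKM with ivermectin, 590.3 ± 13.9 FPKM with importazole and 543 ± 38.5 FPKM with vehicle (SD, n = 3 each).

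Rps27l, a paralog of Rps27 and a p53 target in human cells, had 62.4, 57.4 and 104 FPKM with ivermectin, 63.4, 46.1 and 56.7 FPKM with importazole and 54.4, 74.9 and 52.1 FPKM with vehicle. Its highest values were in ivermectin library 3 and vehicle library 2, the libraries that list Yam1 at 0. The log2 changes were 0.27 with ivermectin, -0.12 with importazole and 0.38 between ivermectin and importazole, the last with a limma adjusted p of 0.369. Without ivermectin library 3 its log2 change was 0.0042 with ivermectin and 0.12 in the direct comparison. Rps27 itself averaged 713 ± 81.7 FPKM with ivermectin, 717 ± 60.2 FPKM with importazole and 675 ± 25.96 FPKM with vehicle (SD, n = 3 each). Rpl36al was an exception in level, at 177 ± 9.18 FPKM with ivermectin, 174 ± 10.4 FPKM with importazole and 161 ± 9.31 FPKM with vehicle, above Rpl36a at 125 ± 22.9, 143.0 ± 9.501 and 114 ± 10.8 FPKM in the same groups (SD, n = 3 each). Rpl7l1 and Rpl36al had log2 changes of 0.14 and 0.14 with ivermectin and 0.17 and 0.12 with importazole, beside 0.22 and 0.12 with ivermectin and 0.21 and 0.33 with importazole for Rpl7 and Rpl36a. The 11 extra copies together had medians of 0.19 with ivermectin and 0.17 with importazole, and 0 of them were called in the 3 comparisons.

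The log2 change tended to be lower in members of higher GC content. Across the 86 members with an annotated transcript, Spearman's rho of the log2 change with GC content was -0.36 with ivermectin and -0.19 with importazole, and across 10867 genes it was -0.23 and -0.065. With transcript length rho was 0.040 and -0.11 across members. The genes share libraries and are not independent, so no p is given. With the trend of each library on length and GC removed, the family's medians were 0.162 with ivermectin and 0.160 with importazole. Ribosomal protein transcripts are short, with a median length of 630 bases against 1297 for all genes.

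Processed copies of ribosomal protein genes are common in the mouse genome, and 251 symbols carry the pseudogene mark -ps, of which 165 passed the filter. At least 1 such symbol exists for 56 of the 87 genes. Their summed level was 6397 to 8328 FPKM with ivermectin, 6592 to 7374 FPKM with importazole and 5598 to 6847 FPKM with vehicle. The median log2 change of the 165 was 0.18 with ivermectin, beside 0.19 for the 87 genes, and 0.15 with importazole, beside 0.21. It was above 0 for 149 of the 165 with ivermectin, against 53.3% of all genes, and for 129 with importazole, against 61.4%. In limma's test 5 of the 165 were called higher with ivermectin, against 1.79% of all genes, and 1 with importazole, against 1.69%, and 0 were called lower with either. Reads of a gene and its copy may be exchanged, and the rule by which they were assigned is not known here.

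Gnb2l1 and Fau belong to the ribosome and lie outside the symbol rule. Gnb2l1, the symbol used in the files for the scaffold protein Rack1, had 730.4, 724 and 724 FPKM with ivermectin, 770.1, 785 and 731.0 FPKM with importazole and 663, 636 and 620.4 FPKM with vehicle. It rose with importazole, by 0.25 on the log2 scale (limma adjusted p 0.0407), and with ivermectin the log2 change was 0.18 (adjusted p 0.0933, limma), with no overlap with vehicle in either group. Fau, which encodes a ribosomal protein fused to a ubiquitin-like protein, had log2 changes of -0.01 with ivermectin and 0.18 with importazole, and did not pass.

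Other transcripts known to carry a TOP tract had medians close to those of the ribosomal proteins. Their 25 tested members had a median log2 change of 0.16 with ivermectin and 0.20 with importazole, against 0.014 and 0.041 for all genes. With ivermectin 2 rose, 1 fell and 22 did not pass, and with importazole 2 rose, 0 fell and 23 did not pass. Among all genes 1.79% rose and 2.52% fell with ivermectin, and 1.69% rose and 0.565% fell with importazole. Gas5, a spliced host of small nucleolar RNAs, had 139, 131 and 149.7 FPKM with ivermectin, 132, 122 and 129.9 FPKM with importazole and 95.8, 94.9 and 95.5 FPKM with vehicle, and rose with both, by 0.55 (limma adjusted p 0.000533) and 0.42 (0.004697) on the log2 scale. Its libraries did not overlap with vehicle. Pabpc1, the poly(A)-binding protein, rose by 0.34 with ivermectin (limma adjusted p 0.0399), and Eif3a, a subunit of initiation factor eIF3, by 0.27 with importazole (0.0468). Vim, the intermediate filament protein vimentin, fell with ivermectin, to 299.7 ± 7.52 FPKM against 443 ± 34.95 FPKM with vehicle (SD, n = 3 each), a log2 change of -0.56 (limma adjusted p 0.00115). Vim was also lower with ivermectin than with importazole, with a log2 change of -0.40 (limma adjusted p 0.0127).

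The machinery that builds ribosomes had smaller medians. Of 59 assembly factors tested, 2 rose with ivermectin and 57 did not pass, at a median log2 change of 0.12, while 0 of 59 passed with importazole, at a median of 0.15. Of all genes, 1.79% rose and 2.52% fell with ivermectin, and 1.69% rose and 0.565% fell with importazole. Nop10, a component of box H/ACA particles, had 38.7, 40.5 and 40.7 FPKM with ivermectin and 31.9, 31.03 and 32.1 FPKM with vehicle, and Wdr12, of the PeBoW complex, had 13.2, 15.2 and 12.9 FPKM with ivermectin and 10.8, 9.44 and 9.85 FPKM with vehicle. Neither overlapped with vehicle, and the log2 changes were 0.33 and 0.42 (limma adjusted p 0.00863 and 0.0399). Among 20 genes of the RNA polymerase I machinery, which transcribes ribosomal RNA, Polr1b, the second-largest subunit, rose with ivermectin by 0.45 (limma adjusted p 0.0275), 19 did not pass, and 0 passed with importazole. Their medians were 0.094 and 0.15.

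Of 10 receptors that import ribosomal proteins into the nucleus, 0 passed in either comparison, with medians of 0.053 with ivermectin and 0.12 with importazole. Kpnb1, importin-β itself, named here after its values were seen, averaged 77.2 ± 3.96 FPKM with ivermectin, 85.8 ± 4.004 FPKM with importazole and 76.02 ± 5.25 FPKM with vehicle (SD, n = 3 each). Among 16 p53 targets, 3 rose with ivermectin, Sesn2, Ccng1 and Eda2r, and 1 with importazole, Sesn2, while 0 fell, with medians of 0.095 and 0.12. Over all genes, 1.79% and 1.69% rose with ivermectin and importazole, and 2.52% and 0.565% fell. Ccng1, cyclin G1, and Eda2r, a receptor of the TNF receptor family, had log2 changes of 0.34 and 0.47 with ivermectin (limma adjusted p 0.0244 and 0.0329). Sesn2, a stress-induced inhibitor of mTORC1 signalling that is also induced by ATF4, had 14.97, 15.5 and 11.8 FPKM with ivermectin, 11.9, 11.8 and 11.7 FPKM with importazole and 8.21, 7.18 and 8.15 FPKM with vehicle. Its libraries did not overlap with vehicle, and the log2 changes were 0.76 and 0.54 (limma adjusted p 0.00146 and 0.0184).

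**Figure D5:**
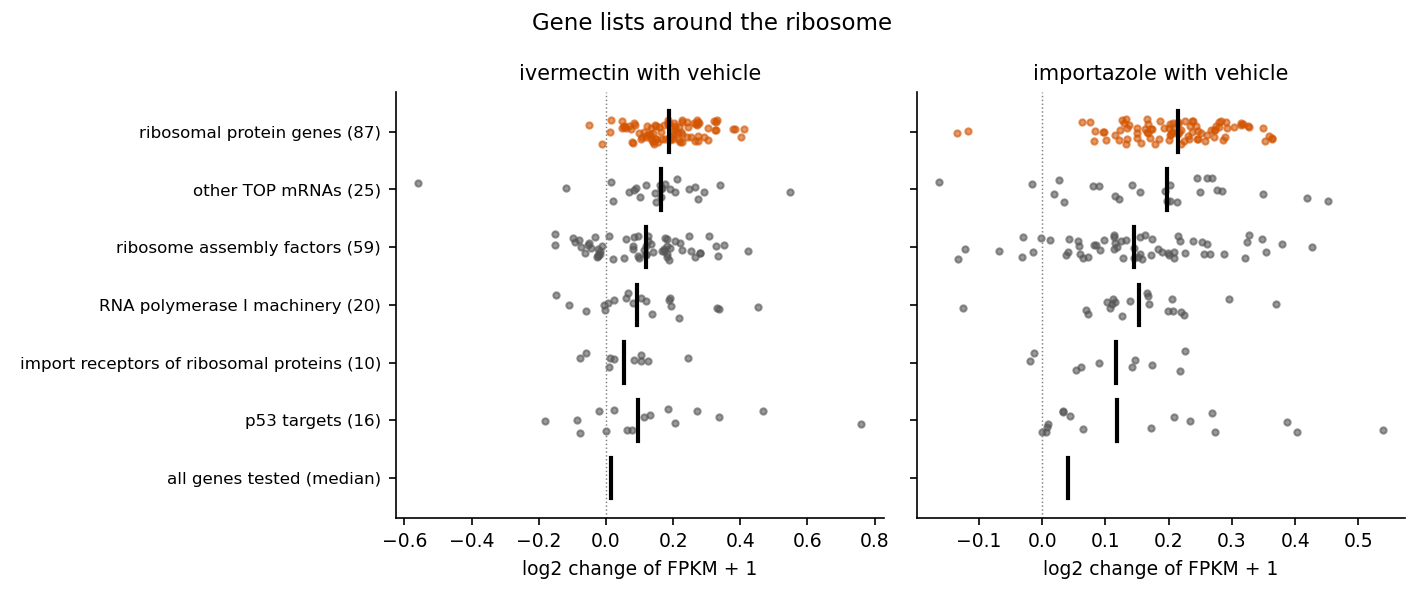
Log2 change of FPKM + 1 for each tested gene of 6 lists (points, number tested in parentheses) against vehicle, with ivermectin on the left and importazole on the right; thick bars are list medians, and the last row is the median of all genes tested. The ribosomal protein genes have medians of 0.19 and 0.21 and the other TOP mRNAs 0.16 and 0.20, while the import receptors have 0.053 and 0.12.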

How the data were processed

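Poly(A) RNA of 9 HL-1 libraries was sequenced on the Ion Proton system, per the labels' protocols. Each deposited file pairs symbols with FPKM, per the file headers. STAR, Bowtie2, Bowtie, Cufflinks and the builds mm10 and GRCm38 are named, without versions or roles, in the submitters' processing notes. Annotation and strand use are not given in the sources used. FPKM did not resolve into reads, so no counting interval is given. Values of 48 repeated symbols (0 of them ribosomal protein genes) were summed. Values were analysed as log2(FPKM + 1), so fold changes are on that scale and understate changes of low genes. Genes that reached 1 FPKM in 3 or more libraries were fitted with limma 3.58.1 (trend and robust moderation) in R 4.3.3, all 9 libraries together, with two-sided tests and Benjamini-Hochberg adjustment over 11337 genes, and a gene was called at an adjusted p under 0.05. A further fit subtracted each library's mean of the 87 genes. The procedure was run on simulated data with independent noise for each gene. Such data lack the shifts that genes of a library share, so nothing is read from them about the family's small changes. Locations came from GENCODE M21 and promoter windows from RefSeq. Plots were made in Python 3.11.15 with matplotlib 3.10.9.

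The genes and lists were chosen with earlier results of these data known. Genes named are those called, the 4 largest and 4 smallest changes per comparison, the 4 highest and 4 lowest levels, a fixed set of well-known members and paralogs, and up to 4 called genes of each other list. Some genes that these rules choose are not reported here. The genes that did not overlap between ivermectin and importazole, those called after rescaling without Yam1 or with a library left out, the overlapping genes and the markers Ddr2, Col1a1, Col1a2, Col3a1, Pdgfra, Dcn, Cdh5, Ptprc and Myh11 were named after their values were seen. Alternatives were other pseudocounts, filters, scalings (quantile, median-of-ratios, without Yam1), removal of length and GC trends, fits to 6 libraries, a replicate block, other thresholds and leaving out libraries. Added after seeing the data were leaving out the extra copies, and rescaling without Yam1 combined with leaving out ivermectin library 3 or with the count of groups that do not overlap.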

Additional observations from a re-analysis of the deposited data

Results flagged for a closer look

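Rps10 is listed because its response differed between ivermectin and importazole relative to the other ribosomal protein genes of the same libraries, by -0.333 on the log2 scale (adjusted p = 0.0306 in limma's test of the difference, 3 libraries each). All 3 ivermectin libraries (351, 405 and 436 FPKM) lay below all 3 importazole libraries (494.5, 501.5 and 522 FPKM). The 1 call among the 87 genes (1.15%) is a smaller share than the 2.37% of all genes called in the same fit. On the scale of all genes the difference was not called (adjusted p 0.109 in limma's test). The difference relative to the other members kept its sign in each of the 20 settings, with adjusted p from 0.00417 to 0.111, and the call was lost in 6 of the 9 fits with a library left out. Pseudogene symbols of Rps10 summed to 46.3% of its level, and their part in the result was not tested.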

How the results depend on the processing

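The family's median log2 change against vehicle kept its sign under all alternatives run, between 0.0996 and 0.240 with ivermectin and between 0.155 and 0.258 with importazole. The median of ivermectin with importazole stayed near 0, between -0.103 and 0.0446. Its sign changed with median-of-ratios scaling, when rescaled without Yam1, with length and GC trends removed, and without ivermectin library 1 or 2. No alternative run called any of the 87 lower than vehicle. Of all genes, 0.532% to 4.22% were called lower with ivermectin in these runs and 0.105% to 1.49% with importazole.

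Counts of genes called, 1 with ivermectin, 2 with importazole and 0 lower in the direct comparison, were sensitive to the choices made. The ivermectin count was 0 with no filter, in fits to 6 libraries, without both libraries that list Yam1 at 0 and at an adjusted p under 0.01. Of all genes, 0.396%, 1.01%, 0.723% and 0.653% were called higher there, in the same order. The ivermectin count was 3 when rescaled without Yam1 and without ivermectin replicate 3, against 1.69%, and 4 with median-of-ratios scaling, against 2.03%. It was 5 with length and GC trends removed, against 2.36%, and 6 with quantile normalization, against 2.18%. It was 7 when rescaled without Yam1, against 2.11%, and 8 at an adjusted p under 0.10, against 3.41%. The importazole count was 0 at an adjusted p under 0.01, against 0.794% of all genes, and 1 with no filter, against 0.479%. It was 4 with a filter at 5 FPKM, against 2.61%, and 5 with quantile normalization, against 1.4%. It was 6 at an adjusted p under 0.10, against 3.05%, and 10 in fits to 6 libraries, against 1.89%. It was 12 when rescaled without Yam1 and without ivermectin replicate 3, against 1.99%. In the direct comparison 1 gene was lower with quantile normalization, with length and GC trends removed and at an adjusted p under 0.10. Of all genes, 2.42%, 2.65% and 4.76% were called lower there, in the same order. With a library left out, counts ran from 0 to 2 with ivermectin, from 0 to 14 with importazole and from 0 to 1 lower in the direct comparison. The shares of all genes in those fits were 0.847% to 1.46%, 0.926% to 2.18% and 1.28% to 2.8%, in the same order. Relative to the other members, ivermectin with vehicle gave 1 with no filter and 0 to 2 with a library left out. Importazole with vehicle gave 1 without both libraries that list Yam1 at 0. The direct comparison gave 0 to 1 with a library left out. Shares of all genes after this subtraction were computed for the main setting alone, at 17.4%, 7.32% and 2.37% in the same order. Nothing is therefore read from these counts about the family. The mean share of FPKM was 13.3% with importazole and 11.9% with vehicle once Yam1 was left out.

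Deviations from the group mean, over all genes, correlated between -0.21 and 0.145 for same-numbered libraries of different groups. For differently numbered libraries they correlated between -0.219 and 0.307. The highest value, 0.307, was that of vehicle library 2 with ivermectin library 3, the libraries that list Yam1 at 0, and its cause was not tested. Same numbers thus gave no sign of a pairing, but these values cannot show that the samples were unpaired. With the replicate number as a block, 0 of the 87 were called higher with ivermectin, against 1.24% of all genes, and 1 with importazole, against 1.21%. Relative to the other members, 1 was called for ivermectin with vehicle, but the share of all genes in that fit was not computed, so nothing is read from it.

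Signs turned for changes close to 0, none of them called in any of these settings. With a library left out, the ivermectin change ran from -0.13 to 0.075 for Rpl3l, -0.083 to 0.049 for Rpl28, -0.070 to 0.14 for Rps10, -0.051 to 0.072 for Rpl29, -0.0299 to 0.20 for Rpl13a, -0.011 to 0.25 for Rpl36a and -0.019 to 0.12 for Rps27. In the same way it ran from -0.22 to 0.045 for Rps27l with importazole and from -0.16 to 0.28 for Rpl22l1 in the direct comparison. Without both libraries that list Yam1 at 0 the values were 0.021 for Rpl3l, 0.058 for Rpl28, -0.14 for Rps10, -0.12 for Rpl13a, -0.026 for Rps27, 0.045 for Rps27l and -0.16 for Rpl22l1. Rescaled without Yam1 and without ivermectin replicate 3 they were 0.092 for Rpl3l, 0.069 for Rpl28, -0.039 for Rps10, -0.00991 for Rpl13a and -0.0996 for Rpl22l1. Rps10 was at -0.0026 with quantile normalization, -0.00659 with median-of-ratios scaling and -0.0026 when rescaled without Yam1, and Rpl29 was at -0.0015 with median-of-ratios scaling. The cause of these moves was not tested. Depth is unknown from FPKM.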
